A study of Homo sapiens with 18 samples.

Results

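The change from expansion to day 4 of differentiation was followed in HUDEP1 cells with full-length GATA1, an established, immortalised human erythroid progenitor line. The 6 libraries labelled GATA1FL were chosen by genotype and treatment, 3 in expansion and 3 at day 4, of 18 libraries of poly(A) RNA in all. The other 12 came from clones 1D5 and 1KI9, which express GATA1s, the short isoform made without the protein's N-terminus, with 3 libraries per clone and condition. Expansion cells grew in SFEM II with 3 U/mL EPO, 50 ng/mL stem cell factor and 1 µg/mL doxycycline, to which 1 µM dexamethasone was added. At day 4 the medium was IMDM with the same amounts of EPO, stem cell factor and doxycycline, and it also held 2% fetal bovine serum, 3% human AB serum, 10 µg/mL insulin, 3 U/mL heparin and 1 mg/mL holo-transferrin. No dexamethasone is listed for day 4. Medium, serum, hormone withdrawal and time therefore change together and cannot be told apart in this comparison. Full-length GATA1 is represented by the libraries of 1 line, and the labels do not say whether replicates were separate cultures, so p-values measure only the spread between libraries.

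GATA1 is a zinc-finger transcription factor that binds GATA motifs in DNA and switches on globin, heme and membrane genes as a red cell precursor matures. While precursors mature, GATA1 replaces GATA2 at shared sites, KIT signalling from stem cell factor is lost, EPO signalling through its receptor and JAK2 keeps cells alive, and division stops. The cell fills with hemoglobin, builds a spectrin-based skeleton under its membrane, and removes its organelles by autophagy. HUDEP lines were made from cord blood progenitors with papillomavirus E6 and E7 genes under doxycycline control, and HUDEP1 is known for expressing mainly fetal rather than adult globin.

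Levels are the deposited values per gene, which are corrected for gene length, divided by a median-of-ratios factor for each library, and they carry no read depth. The deposited values of full-length GATA1 summed to between 946712 and 950736 in expansion and between 1045885 and 1081251 at day 4, so the conditions had been scaled separately. Before rescaling, the median gene was lower at day 4 by a log2 difference of -0.38, and after rescaling by 0.02 higher. Expansion replicate 1 stood apart, with 10.6% of its total in globin transcripts against 5.55% and 5.73% in replicates 2 and 3. Some results, though not all, are also given without it. Leaving it out changed the median log2 difference of the heme synthesis list from 1.76 to 1.91. The median went from 1.24 to 1.34 for the membrane skeleton and from 1.94 to 2.16 for blood group carriers. The 10 defining erythroid markers were detected in all 6 libraries. Of 16 lymphocyte markers 3 were listed, at 0 in expansion and at 0.461 or less at day 4, and none of them was tested. CSF1R, the macrophage growth factor receptor, was at 0 in all 6 libraries. The 12 mast cell, basophil and eosinophil markers listed summed to between 938 and 1336 in expansion and to between 660 and 688 at day 4, mostly through PRG2, KIT and GATA2, and MS4A2, FCER1A and IL5RA were at 0.132 or less. Of the 8 tested, 3 rose and 2 fell at least 2-fold. The tryptase gene TPSB2 rose from between 1.99 and 3.17 to between 51.3 and 57.3. Its near-identical relative TPSAB1 rose from between 0.646 and 1.04 to between 12.9 and 13.6. HPGDS, a prostaglandin D synthase, rose from between 4.53 and 13.8 to between 34.9 and 38.0. The 11 monocyte and neutrophil markers listed summed to between 14.8 and 47.4 in expansion and to between 61.7 and 65.2 at day 4, where CD68 made up most of the sum. The 10 megakaryocyte markers listed summed to between 12.7 and 24.2 in expansion and to between 125 and 127 at day 4, mostly through TUBB1, a tubulin that platelets use. Of the 7 tested, 6 were called higher and 0 lower, and 3 rose at least 2-fold, with a median log2 difference of 0.76. Of the 10 listed, 6 stayed under a level of 1 in all 6 libraries. The part of other cells in the results was not tested. GATA1 levels are per gene and do not tell the full-length and short isoforms apart.

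Most of the transcriptome moved. Of 11015 genes tested, 4611 were higher and 4437 lower at day 4 (limma on log2(level + 1), Benjamini-Hochberg adjusted p under 0.05), which is 82.1% in all, 41.9% higher and 40.3% lower. Because a call alone says little against that background, lists are described by members that were called and changed at least 2-fold, which held for 16.9% of genes upward (1860) and 13.7% downward (1505), and by their median, against a median of 0.02 for all genes tested. Groups did not overlap for 83.1% of genes. The split between higher and lower depended on scaling: with the values as deposited 2916 were higher and 6302 lower, and with libraries set to equal totals 2449 and 6819. The latter scaling brought the median of all genes to a log2 difference of -0.52, so lists are read against the median of all genes on the same scale. Where a gene is said to have risen or fallen by a plain number, that number is the log2 difference in level. In bulk RNA, fewer cells of a type and less RNA per cell cannot be told apart.

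The plot of gene list changes shows lists with medians on either side of that of all genes. The lists of globins, late erythroid maturation and blood group carriers lay highest, and those of the growth machinery lay lowest. The lists of autophagy (median 1.93), insulin and FOXO targets (1.65) and p53 targets (1.55) lay above the red cell membrane skeleton (1.24).

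**Figure D1:**
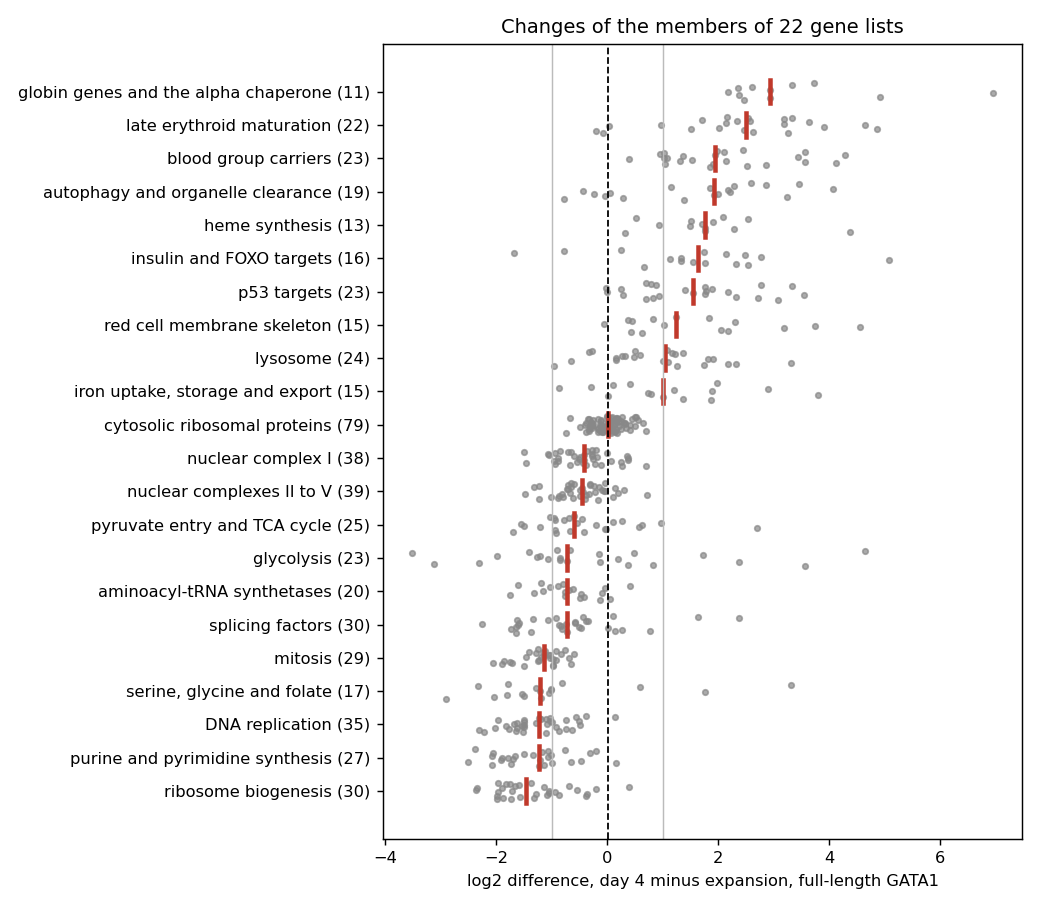
Log2 difference between day 4 and expansion (horizontal axis) for the tested members of 22 gene lists in full-length GATA1, with the number tested in brackets. Each grey point is a gene, the red bar is the list's median, the dashed line is the median of all 11015 genes (0.02) and the pale lines mark a 2-fold change. The globin list has the highest median shown, 2.93, and ribosome biogenesis the lowest, -1.47.

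Hemoglobin genes had the highest median of the lists examined. All 11 tested members of the list of globins and AHSP, the chaperone that holds free alpha chains, rose at least 2-fold, with a median log2 difference of 2.93. Globin transcripts made up 10.6, 5.55 and 5.73% of the total in the expansion libraries and 39.0, 39.4 and 38.2% at day 4. The day-4 shares lay above every expansion share by a mean of 31.5 percentage points (exact two-sided permutation test, p = 0.1, the smallest that 3 against 3 libraries allow). The share does not depend on the scaling of the libraries.

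The embryonic beta-like gene HBE1 had the largest rise of any gene that met the naming rule. Its levels were 1170, 1054 and 269 in expansion and 88530, 86090 and 85180 at day 4. The expansion libraries differed among themselves by more than 4-fold and the day-4 libraries by a few percent, with no overlap. HBE1 rose by a log2 of 6.96 ± 0.38 (SE; limma adjusted p = 7.2e-12), or 6.28 without expansion replicate 3. HBE1 thereby went from 1.17, 2.21 and 0.52% of all globin transcripts to 15.8, 15.6 and 16.2%, and from a mean of 2.40% to 24.8% of the beta-like globins. Its annotated gene model overlaps other beta-like genes, so a share of its reads may belong to them.

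Gamma globin, the fetal chain, stayed the most abundant. Summed over HBG1, HBG2 and a gene model that spans both (AC104389.5), it was 55456, 24121 and 27869 in expansion and 269109, 258344 and 259608 at day 4. Every day-4 library exceeded every expansion library, yet the gamma share of globin went from a mean of 53.3% to 48.1%. Alpha globin (HBA1 and HBA2) went from 37173, 20367 and 21616 to 170795, 175788 and 152972. The alpha share of globin fell from a mean of 40.5% to 30.5%, with no overlap between conditions (exact two-sided permutation p = 0.1). HBZ, the embryonic alpha-like chain, rose from 5689, 2096 and 1954 to 29260, 30010 and 26870, a log2 difference of 3.33 ± 0.36 (SE; limma adjusted p = 9.7e-08). The HBZ share of HBZ plus alpha was 13.3, 9.33 and 8.29% in expansion and 14.6, 14.6 and 14.9% at day 4. The ratio of beta-like to alpha-like transcripts was 1.32, 1.12 and 1.19 in expansion and 1.79, 1.68 and 1.92 at day 4, without overlap.

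Adult chains remained rare. HBB was 13.1, 3.28 and 5.92 in expansion and 229, 213 and 233 at day 4, a log2 rise of 4.92 ± 0.35 (SE; limma adjusted p = 3.5e-10), yet it was 0.041% of globin transcripts at day 4. HBD, the minor adult chain, went from between 1.17 and 1.51 to between 10.6 and 12.5. AHSP rose from 202, 84.5 and 111 to 1677, 1617 and 1660. In each of these 11 genes expansion replicate 1 had the highest of the 3 expansion levels, and without that library the list's median was 3.23.

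**Figure D2:**
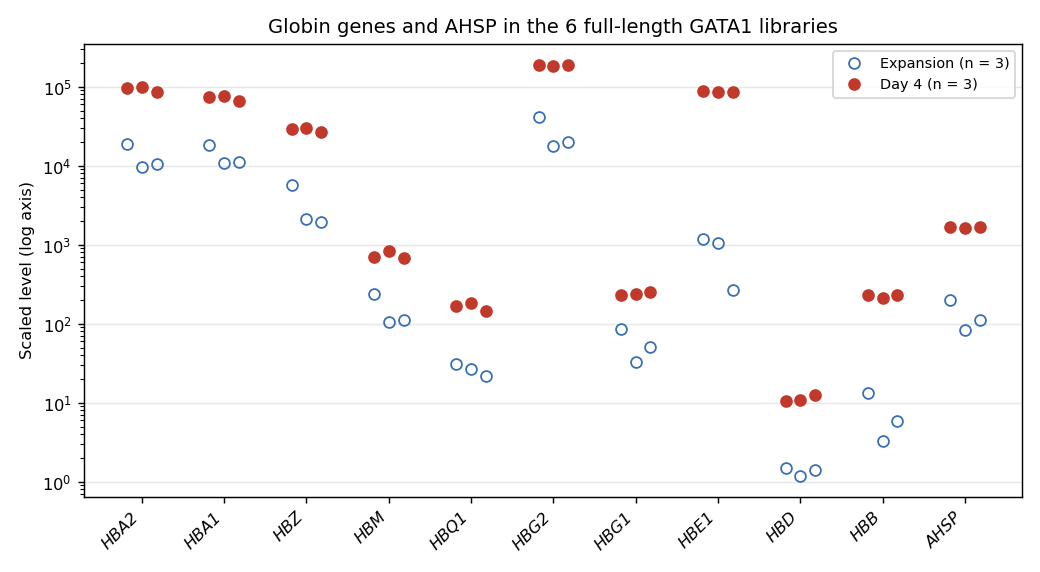
Scaled level on a log axis of 10 globin genes and AHSP in each full-length GATA1 library. Open circles are the 3 expansion libraries and filled circles the 3 day-4 libraries, in replicate order. For each gene the day-4 points lie above the expansion points, and HBE1 has the widest gap, from 269 to 1170 up to 85180 to 88530.

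The heme pathway rose together with the globins. Heme is made from glycine and succinyl-CoA by 8 enzymes that lie partly in mitochondria and partly in the cytosol. Of 14 list members 13 were tested, all 13 were called higher and 10 rose at least 2-fold, with a median of 1.76. ALAS2, the erythroid form of the first and rate-limiting enzyme, was 244, 130 and 77.2 in expansion and 2943, 2790 and 2739 at day 4. The day-4 libraries were alike and far above all 3 expansion libraries, a log2 difference of 4.38 ± 0.29 (SE; limma adjusted p = 1.1e-10). Its housekeeping counterpart ALAS1 moved from between 22.6 and 27.6 to between 30.0 and 32.2, a log2 difference of 0.32 that turned to -0.30 with libraries set to equal totals. The ALAS2 to ALAS1 ratio, which no library factor changes, was 10.1, 5.75 and 2.80 in expansion and 91.3, 92.9 and 89.1 at day 4.

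The later enzymes rose less. FECH, which inserts iron into the ring, went from 266, 208 and 173 to 802, 805 and 805 (log2 1.91). ALAD rose by a log2 of 1.76, UROS by 1.76, PPOX by 1.71 and UROD by 1.49. CPOX, the oxidase that acts at the mitochondrial intermembrane space, rose by 0.94 and missed the 2-fold mark. Transport into and within mitochondria moved as well: SLC25A39, a carrier of the inner mitochondrial membrane, rose by 2.54, TMEM14C, which helps porphyrin cross the inner membrane, by 2.09, and SLC25A38, a glycine carrier, by 1.51. ABCB10, an inner membrane transporter, had a log2 difference of 0.52, which became -0.12 with libraries set to equal totals.

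Promoter letters are shown for ALAS2 and CPOX, the members with the largest and a small rise in the pathway, and for EPB42, the membrane skeleton gene described below. The sequences are the 250 bases before the RefSeq start (GRCh38.p14), 5′ to 3′ on the gene's own strand, with capitals at AGATAA or its reverse complement TTATCT, a form of the motif that GATA1 is known to bind. The ALAS2 window is chrX:55030978-55031227, minus strand, with its match beginning 127 bases before the start. The CPOX window is chr3:98593612-98593861, minus strand, with matches 207 and 125 bases before. The EPB42 window is chr15:43221019-43221268, minus strand, with matches 208 and 61 bases before.
ALAS2: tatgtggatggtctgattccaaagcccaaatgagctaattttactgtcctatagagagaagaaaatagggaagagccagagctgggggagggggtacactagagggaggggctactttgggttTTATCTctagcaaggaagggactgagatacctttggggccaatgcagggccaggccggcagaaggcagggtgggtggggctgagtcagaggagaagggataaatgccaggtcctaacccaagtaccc
CPOX: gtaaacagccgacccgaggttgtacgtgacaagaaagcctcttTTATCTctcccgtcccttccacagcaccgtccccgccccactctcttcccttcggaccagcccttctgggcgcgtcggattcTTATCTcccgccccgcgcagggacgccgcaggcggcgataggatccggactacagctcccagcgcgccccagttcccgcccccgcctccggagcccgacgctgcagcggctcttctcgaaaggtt
EPB42: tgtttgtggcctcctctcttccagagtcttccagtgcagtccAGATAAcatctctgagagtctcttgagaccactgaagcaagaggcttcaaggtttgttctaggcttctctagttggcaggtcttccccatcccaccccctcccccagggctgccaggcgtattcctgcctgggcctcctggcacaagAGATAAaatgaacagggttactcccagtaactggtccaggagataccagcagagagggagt
Of the 35116 promoter entries in the table, 9.17% hold this motif in the same window on either strand. The heme genes had 15 entries, for 12 genes, and 4 of the 15 held it (26.7%). Each promoter shown above holds a match, whereas 4 of the 12 heme genes do. A match describes letters and no binding was measured. ALAS2 with 1 match rose by a log2 of 4.38, and CPOX with 2 matches by 0.94.

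Iron handling changed with heme. Of 15 iron genes tested 8 rose at least 2-fold and none fell so far, with a median of 1.02. SLC25A37, mitoferrin, the inner membrane iron carrier of erythroid mitochondria, went from 563, 293 and 189 to 4387, 4469 and 4348, a log2 of 3.80 ± 0.25 (SE; limma adjusted p = 9.8e-11). The transferrin receptor TFRC rose from 560, 413 and 394 to 1601, 1609 and 1711 (log2 1.86). NCOA4, which delivers ferritin to autophagy, rose from 98.8, 81.2 and 76.7 to 638, 629 and 658 (log2 2.90). The ferritin heavy chain FTH1 rose by 1.90 and the light chain FTL by 1.21, so that the FTH1 to TFRC ratio was between 7.22 and 7.90 in expansion and between 7.44 and 8.02 at day 4, overlapping. ERFE, the erythroid hormone that lowers hepcidin, rose from 14.5, 3.65 and 4.32 to 27.9, 28.2 and 27.4 (log2 1.99, and 2.54 without expansion replicate 1). The iron exporter SLC40A1 rose by 0.74, a call that was lost with libraries set to equal totals (0.10). Heme breakdown also rose: HMOX1, the inducible heme oxygenase, went from 5.45, 6.33 and 4.37 to 155, 148 and 141 (log2 4.56), while the constitutive HMOX2 fell by 1.33. Of 17 iron-sulfur cluster genes 1 rose and 1 fell at least 2-fold, and their median was 0.01.

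**Figure D3:**
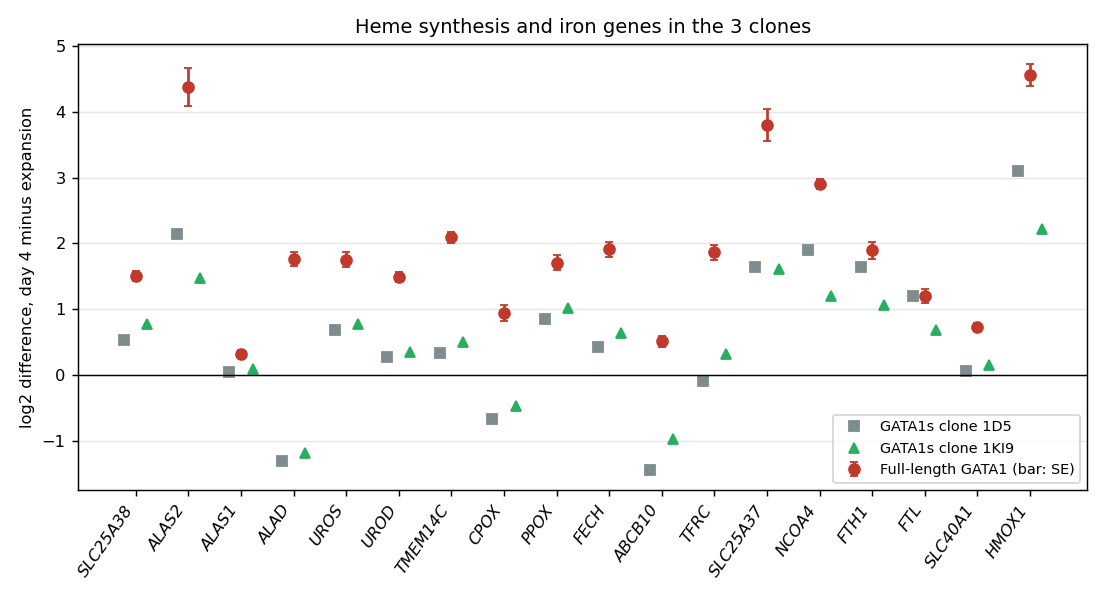
Log2 difference between day 4 and expansion for heme synthesis, iron and heme breakdown genes in full-length GATA1 (circles, bars are the SE of the fit over 3 libraries per condition) and in the GATA1s clones 1D5 (squares) and 1KI9 (triangles). ALAS2 lies at 4.38 in full-length GATA1, and ALAD lies at 1.76 there and below 0 in both clones.

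The membrane skeleton and the proteins that carry blood groups rose. Of 15 skeleton genes 14 were called higher and 9 rose at least 2-fold, with a median of 1.24, and of 23 blood group genes all 23 were called higher and 21 rose at least 2-fold, with a median of 1.94. SLC4A1, band 3, the anion exchanger that anchors the skeleton, was 177, 76.4 and 31.4 in expansion and 1832, 1802 and 1772 at day 4. The expansion libraries spread over more than 5-fold, and all lay under the day-4 libraries (log2 4.56 ± 0.40 SE; limma adjusted p = 5.1e-09). Without expansion replicate 1 the difference was 5.17, and without replicate 3 it was 3.94. DMTN, dematin, which bundles actin, rose by 3.74, and EPB42, protein 4.2, by 3.18, from 23.8, 11.6 and 9.35 to 140, 130 and 130. TMOD1, which caps the short actin filaments, rose by 2.30, ANK1, ankyrin, by 2.18 and EPB41, protein 4.1, by 2.06. SPTB, beta spectrin, had a log2 difference of 0.43, which became -0.20 with libraries set to equal totals. ADD2 was 124, 89.7 and 89.7 in expansion and 94.8, 95.3 and 98.8 at day 4, and did not pass (limma adjusted p = 0.58), though it was called lower with libraries set to equal totals (-0.69).

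Among blood group carriers, GYPC, glycophorin C, rose from 324, 236 and 200 to 1863, 1861 and 1755 (log2 2.87 ± 0.13 SE; limma adjusted p = 6.4e-13). KEL, the Kell protein, rose by 2.14. RHD and RHCE, near-identical genes between which reads can be split wrongly, rose by 4.12 and 3.58, whereas their partner RHAG rose by 1.05. SLC2A1, the glucose transporter that mature red cells carry in abundance, rose from 142, 89.7 and 78.8 to 1180, 1256 and 1175 (log2 3.57). AQP1, the water channel, went from 0.326, 0.309 and 0.0952 to 22.9, 22.6 and 23.9 (log2 4.28).

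Genes of late maturation rose about as far. Of 22 tested 18 rose at least 2-fold and none fell so far, with a median of 2.51. SELENBP1, a selenium-binding methanethiol oxidase, went from 15.6, 8.95 and 6.26 to 314, 314 and 291, a log2 of 4.86 ± 0.19 (SE; limma adjusted p = 7.1e-14). BPGM, which makes the 2,3-bisphosphoglycerate that lowers hemoglobin's oxygen affinity, rose from 20.4, 14.9 and 12 to 413, 400 and 425 (log2 4.65). CA1, carbonic anhydrase 1, rose by 3.25, while CA2 was between 294 and 316 in expansion and between 288 and 297 at day 4 and did not pass (limma adjusted p = 0.35), though it was called lower with libraries set to equal totals (-0.71). XPO7, a nuclear exportin, fell by 0.21.

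Autophagy genes rose in part. Of 19 tested 13 rose at least 2-fold and none fell so far, with a median of 1.93. GABARAPL1, which coats autophagosomes, rose from 4.08, 2.91 and 2.19 to 64.7, 67.2 and 66.8 (log2 4.08), PINK1, a kinase that marks damaged mitochondria, by 3.46 and ULK1, the kinase that starts autophagy, by 3.23. BNIP3L, the receptor through which red cell precursors lose mitochondria, rose from 119, 114 and 106 to 299, 288 and 303 (log2 1.39). Its relative BNIP3 fell by 0.78 and the conjugation gene ATG5 by 0.23. Of 24 lysosome genes 13 rose at least 2-fold, led by the protease CTSL, from 107, 112 and 73.3 to 983, 952 and 948 (log2 3.31). Of 21 genes on the list of ubiquitin conjugation in late erythroid cells, 10 rose and 1 fell at least 2-fold. Among the conjugating enzymes UBE2L6 rose by 4.64 and UBE2H by 3.07, and UBE2S, which acts in mitosis, fell by 1.26. The proteasome subunits did not rise as a group: 0 of 32 rose and 2 fell at least 2-fold.

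Erythroid regulators moved in both directions. Of 25 erythroid transcription regulators 14 rose and 4 fell at least 2-fold. GATA1 was 150, 153 and 137 in expansion and 314, 308 and 290 at day 4, and GATA2 was 113, 156 and 142 and then 69.2, 65.7 and 64.6. GATA1 rose in every day-4 library above every expansion library (log2 1.05 ± 0.06 SE; limma adjusted p = 1.7e-11) and GATA2 fell by 1.02. The GATA1 to GATA2 ratio, free of library scaling, was 1.32, 0.981 and 0.960 in expansion and 4.53, 4.69 and 4.49 at day 4. FOXO3 rose by 2.63, NFE2, an activator of globin genes, by 2.51, ZFPM1, the GATA1 partner FOG1, by 2.01 and KLF1, the erythroid Krüppel-like factor, by 1.85. BCL11A, the repressor of gamma globin, fell from 7.21, 9.13 and 11.7 to 1.46, 1.13 and 1.54 (log2 -2.11 ± 0.16 SE; limma adjusted p = 5.3e-10). SPI1, the myeloid factor that opposes GATA1, fell by 1.98 and MYB, which keeps progenitors dividing, by 1.27.

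Stem and progenitor genes fell, with 8 of 10 tested lower by at least 2-fold and a median of -1.27. LIN28B, the fetal RNA-binding protein, fell from 31.1, 33.5 and 32.0 to 5.15, 5.36 and 5.78 (log2 -2.37 ± 0.06 SE; limma adjusted p = 7.7e-16), and IGF2BP1, which acts with it, by 2.03. TAL1 was the exception and rose by 1.45. KIT, the stem cell factor receptor, went from 287, 377 and 351 to 91.6, 95.7 and 95.2. All 3 day-4 libraries lay below every expansion library, with a log2 difference of -1.82 ± 0.08 (SE; limma adjusted p = 5.7e-13). The same dose of its ligand is listed for both media.

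EPOR and several genes of its pathway rose. EPOR rose from 31.9, 20.7 and 20.3 to 129, 129 and 118 (log2 2.35 ± 0.12 SE; limma adjusted p = 3.8e-12). JAK2, its kinase, rose by 2.42, and the STAT5 targets CISH, PIM1 and BCL2L1 rose by 2.31, 2.09 and 2.53. RHEX, a regulator of erythroid expansion downstream of the receptor, fell from 14.4, 40.0 and 29.8 to 0.796, 0.799 and 0.395, a log2 of -4.02. In all, 9 of 22 list members rose and 4 fell at least 2-fold.

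Dexamethasone is listed for expansion only and insulin for day 4 only, and what the base media themselves hold is not listed. Genes on the glucocorticoid-induced list moved in both directions, and most of the insulin and FOXO targets tested rose. Of 17 glucocorticoid-induced genes 6 rose and 2 fell at least 2-fold. The largest of the rises was that of the metallothionein gene MT2A (log2 6.86), which is also induced by metals. FKBP5, a sensitive glucocorticoid target, fell from 228, 210 and 228 to 66.4, 64.1 and 69.0 (log2 -1.73), and TSC22D3, the other common marker of the hormone, rose from 89.4, 83.5 and 63.2 to 343, 346 and 331 (log2 2.11). Of 16 insulin and FOXO targets 12 rose and 1 fell at least 2-fold, the fall being that of TRIB1 (log2 -1.68). PIK3IP1, an inhibitor of the PI3-kinase, rose from 1.51, 1.55 and 0.552 to 74.3, 71.2 and 70.9 (log2 5.09). TXNIP, which curbs glucose uptake, rose by 2.48. The part of either hormone in these changes was not tested.

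**Figure D4:**
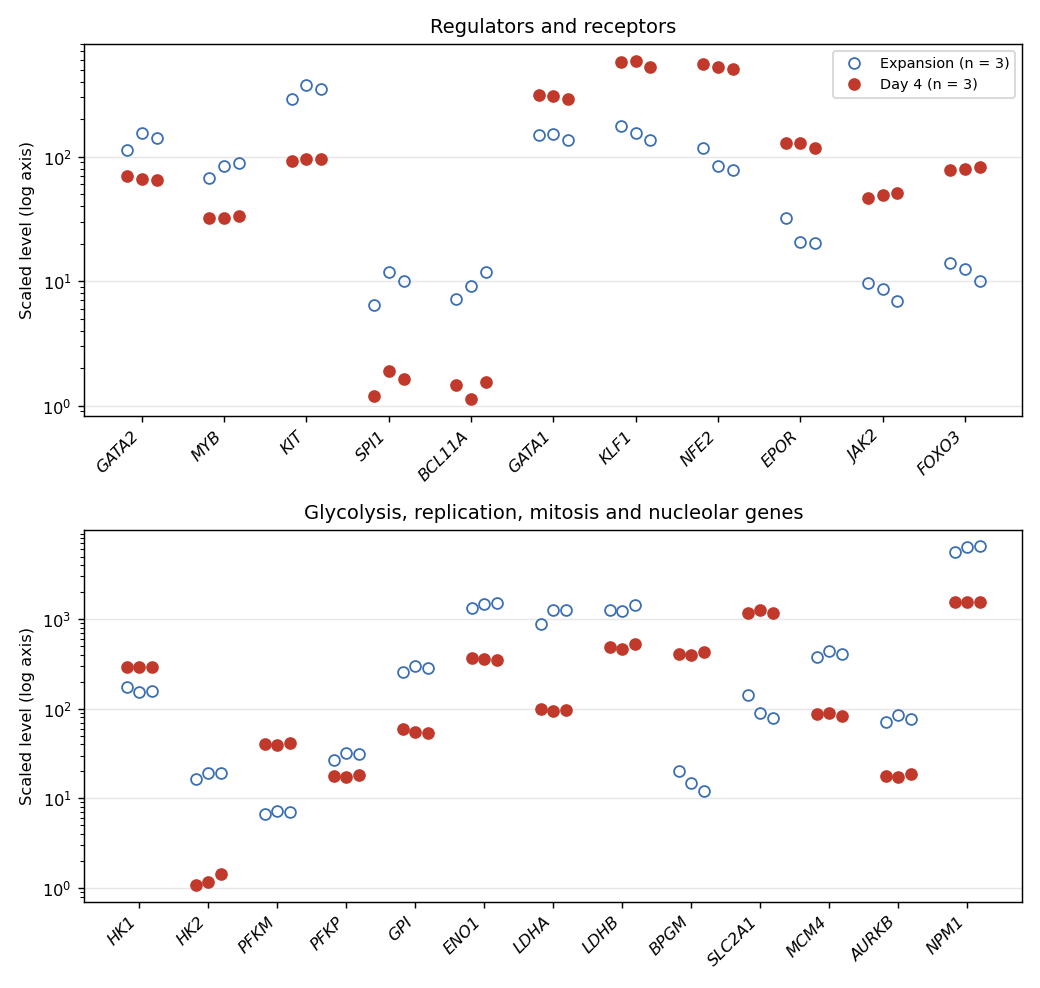
Scaled level on a log axis in each full-length GATA1 library, for regulators and receptors (top) and for glycolytic, replication, mitotic and nucleolar genes (bottom). Open circles are the 3 expansion libraries and filled circles the 3 day-4 libraries. GATA2, MYB and KIT lie lower at day 4 and EPOR and JAK2 higher, and LDHA lies at 93.3 to 100 against 884 to 1277.

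The cell cycle machinery fell. Of 35 DNA replication genes 24 fell and 0 rose at least 2-fold, with a median of -1.22, and of 29 mitosis genes 19 fell and 0 rose, with a median of -1.14. MCM4, a subunit of the replicative helicase, fell from 375, 440 and 413 to 86.9, 89.5 and 83.6 (log2 -2.22 ± 0.07 SE; limma adjusted p = 4.6e-15), and MCM10 by 2.32. AURKB, the Aurora kinase of chromosome segregation, fell from 71.2, 86.2 and 77.7 to 17.6, 17.5 and 18.8 (log2 -2.06), and PLK1 fell by 1.89. GINS1, which works with the helicase, fell by 2.03, and MAD2L1, of the spindle checkpoint, fell by 1.87. LMNB1, the lamin of the nuclear envelope, fell by 2.13.

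Of 20 cyclins and inhibitors of cyclin-dependent kinases tested, 8 rose and 5 fell at least 2-fold. CDKN1A (p21) rose from 57.0, 54.8 and 36.7 to 423, 428 and 399 (log2 3.07 ± 0.17 SE; limma adjusted p = 7.3e-12), CDKN2B by 2.42, CDKN2D by 2.17, CDKN1B (p27) by 1.34 and CDKN2C, an inhibitor induced by GATA1 in late erythroblasts, by 1.30. CCND1 fell by 2.87, CCNA2 by 1.90 and CCNB1 fell by 1.5. CCND3, the cyclin that sets the number of terminal divisions, rose from 161, 171 and 133 to 414, 399 and 398 (log2 1.38), and CCNG2, an atypical cyclin and FOXO target, rose by 2.54. Of 23 p53 targets, CDKN1A among them, 13 rose and 0 fell at least 2-fold, with a median of 1.55: GDF15 rose by 3.55, BTG2 by 3.33 and TP53INP1 by 2.78 in log2, and MDM2, the p53 ligase, by 0.70, a call lost with libraries set to equal totals (0.07). Of 10 MYC network genes tested 5 rose and 1 fell at least 2-fold, the fall being that of MGA (log2 -1.15). MYC fell by 0.66 while its antagonists MXD4, MXI1 and MXD1 rose by 2.79, 2.35 and 1.48.

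Genes of growth and biosynthesis fell. Of 30 ribosome biogenesis genes 22 fell and 0 rose at least 2-fold, with a median of -1.47. The nucleolar chaperone NPM1 fell from 5575, 6428 and 6475 to 1557, 1545 and 1568 (log2 -1.98 ± 0.07 SE; limma adjusted p = 2.0e-14), and POLR1A, the large subunit of the polymerase for ribosomal RNA, by 2.35. The 79 cytosolic ribosomal protein genes did not follow: 0 changed at least 2-fold in either direction, and their median was 0.02, or -0.62 with libraries set to equal totals, where the median of all genes was -0.52. As a share of the total they went from 24.0, 21.9 and 22.7% to 15.1, 15.0 and 15.0% (exact two-sided permutation p = 0.1). Of 27 purine and pyrimidine synthesis genes 20 fell and 0 rose at least 2-fold, led by IMPDH1, the step to guanine nucleotides (log2 -2.51), and PRPS2 (-2.38). Of 17 serine, glycine and folate genes 13 fell and 2 rose at least 2-fold, the falls including PSAT1 (-2.90), GCSH (-2.33) and SHMT1 (-2.05). SLC6A9, the plasma membrane glycine transporter that supplies heme synthesis, went against that list and rose from 17.6, 6.52 and 7.32 to 108, 106 and 98.8 (log2 3.32).

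Translation and RNA processing fell by less. Of 29 initiation factors 8 fell and 2 rose at least 2-fold. EIF4EBP1 fell by 2.03, and EIF2AK1, the heme-regulated kinase that couples globin synthesis to heme, rose from 95.4, 87.3 and 73.8 to 424, 422 and 452 (log2 2.33 ± 0.08 SE; limma adjusted p = 1.4e-14). Of 30 splicing factors 10 fell and 2 rose at least 2-fold, and the 2 were the kinases CLK1 (2.38) and CLK4 (1.64). Of 20 tRNA synthetases 6 fell and 0 rose. Of 20 chaperones 2 rose and 7 fell at least 2-fold, the falls including the mitochondrial HSPA9 (-1.80) and HSPD1 (-1.66). The integrated stress response list split evenly, with 5 of 18 up and 5 down: PPP1R15A rose by 2.18 and PSAT1 and CHAC1 fell by 2.90 and 1.34.

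Glycolytic genes moved in both directions. Of 23 genes 8 fell and 4 rose at least 2-fold, and the median was -0.72. LDHA, which turns pyruvate into lactate, was 884, 1277 and 1254 in expansion and 100, 93.3 and 97.3 at day 4, with a log2 difference of -3.52 ± 0.10 (SE; limma adjusted p = 1.8e-15). LDHB fell by 1.41, and the LDHA to LDHB ratio went from 0.699, 1.04 and 0.882 to 0.206, 0.199 and 0.186. HK2 fell from 16.6, 19.1 and 19.4 to 1.09, 1.17 and 1.45 (log2 -3.12), while HK1, the hexokinase of red cells, rose from 177, 154 and 160 to 294, 292 and 289 (log2 0.83). The HK1 to HK2 ratio was thereby 10.7, 8.07 and 8.21 in expansion and 271, 251 and 199.9 at day 4. The phosphofructokinase PFKM rose by 2.38 and PFKP fell by 0.72, and GPI and ENO1 fell by 2.32 and 1.99. The rises were those of PFKM, BPGM, SLC2A1 and ENO2, the last from a level of at most 1.76.

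Few mitochondrial energy genes changed 2-fold. Of 38 nuclear complex I genes 4 fell and 0 rose at least 2-fold, with a median of -0.42, and of 39 genes of the other complexes 5 fell, with a median of -0.46. CYCS, cytochrome c, fell by 1.48 and NDUFS6 fell by 1.5. Of 25 genes of pyruvate entry and the TCA cycle 1 rose and 5 fell at least 2-fold, the falls including DLAT (-1.69), IDH3A (-1.56) and CS, citrate synthase (-1.5). PDK4, the kinase that blocks pyruvate entry, rose from 0.237, 0.218 and 0.114 to 7.02, 5.70 and 7.63 (log2 2.7). Mitochondrially encoded transcripts fell as a share of the total from 14.7, 16.7 and 17.3% to 9.32, 8.58 and 9.25% (exact two-sided permutation p = 0.1), and 1 of the 13 genes, MT-ND6 (log2 -2.39), changed at least 2-fold. On the scaled level the change was smaller. The 13 genes had a median of -0.14, and their sum went from between 138100 and 156300 to between 120200 and 133600. That median depended on the scaling. With all libraries given the same distribution of values (quantile normalization) it was -0.73, against -0.07 for all genes tested. In lipid metabolism 2 of 25 cholesterol synthesis genes rose and 5 fell. Expansion replicates spread widely in that list, for example from 11.2 to 49.8 for INSIG1, so it is given as counts only.

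After HBE1, the largest rise was that of MT2A, a metallothionein that binds zinc and copper and a member of the glucocorticoid-induced list. It went from 0.820, 0.118 and 1.00 to 193, 181 and 180 (log2 6.86 ± 0.17 SE; limma adjusted p = 3.4e-16). RUNDC3A rose by 6.46, CELA2B by 6.10, AQP2, a water channel best known from kidney, by 5.93, the linker histone gene HIST1H1C by 5.73, and OPTN, an autophagy receptor, by 5.46, from between 0.581 and 0.810 to between 71.6 and 73.8. HLA-B, a class I antigen gene of a polymorphic family with uncertain read assignment, rose from 0.0395, 0.746 and 0.209 to 59.6, 56.9 and 52.4 (log2 5.46), and HLA-E and HLA-C rose by 2.27 and 2.14. RAP1GAP, SLC37A2, NDRG4 and MTURN completed the 12 largest rises, at between 5.25 and 5.35. The largest falls were those of GAL, the neuropeptide galanin (from 87.3, 115 and 109 to 4.33, 4.95 and 5.29, log2 -4.16), LPL, lipoprotein lipase (-4.08), RHEX, NEFH, a neurofilament (-3.59), the fatty acid carrier FABP5 (-3.57), LDHA, ESRRG (-3.32), TERT, the telomerase catalytic subunit (-3.28), HPDL (-3.24), HK2, TBC1D1 (-3.08) and CRYBG1 (-3.07). VIM, vimentin, which is also made by stromal cells, fell from 875, 1693 and 1342 to 156, 153 and 153 (log2 -3.02).

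The promoter of MT2A is shown because the gene had the largest rise outside the globins. Its window, chr16:56608334-56608583, plus strand, is the 250 bases before the RefSeq start (GRCh38.p14), with capitals at TGCGCNC or TGCACNC on either strand, letters of the element through which metal ions are known to induce metallothioneins.
MT2A: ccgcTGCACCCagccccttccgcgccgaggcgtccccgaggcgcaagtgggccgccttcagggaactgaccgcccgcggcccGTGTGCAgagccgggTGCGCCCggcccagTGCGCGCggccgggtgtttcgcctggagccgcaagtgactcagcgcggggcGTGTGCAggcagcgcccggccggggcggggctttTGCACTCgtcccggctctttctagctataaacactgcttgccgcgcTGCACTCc
The window holds 7 matches that do not overlap, the nearest beginning 8 bases before the start, and 24.8% of all promoter entries hold at least 1 match. Zinc and other metals were not measured. MT1X, a close relative, was listed at 0 in all 3 expansion libraries and at 36.0, 31.6 and 34.8 at day 4, but it was among 724 genes listed at 0 in every expansion library of the series and was not tested.

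The most abundant transcripts changed rank with the globins. At day 4 the 8 highest were HBG2, HBA2, HBE1, AC104389.5, HBA1, HBZ, MT-CO1 and MT-ATP8. In expansion they were MT-ATP8, HBG2, MT-CO3, MT-CO2, MT-ND4L, MT-CO1, HBA1 and HBA2. MT-ATP8 itself had a log2 difference of -0.85, and that of MT-CO1 was 0.75. The latter became -0.17 when all libraries were given the same distribution of values (quantile normalization).

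The same comparison was made in the GATA1s clones. With 1 full-length line against clones, genotype and clone cannot be told apart, and the values are differences between lines. The change in full-length GATA1 less that in 1D5 was called for 52.5% of genes, 28.1% more positive and 24.5% more negative, and less that in 1KI9 for 61.4%, at 29.7% and 31.7%. Against both clones at once, 22.9% were more positive and 19.6% more negative, and the same full-length libraries serve both. Those splits moved with scaling: with libraries set to equal totals 987 genes were more positive and 6803 more negative than in 1D5, and 1444 and 6572 than in 1KI9, and the median difference from 1D5 became -0.46.

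Heme synthesis differed throughout. All 13 tested genes changed more positively than in 1D5, and all 13 more than in 1KI9, and the list's median was 1.76 in full-length GATA1, 0.43 in 1D5 and 0.63 in 1KI9. The smallest differences were those of ALAS1, 0.27 and 0.22, which are below the shift that equal totals brought. ALAD, the second enzyme, rose in full-length GATA1 from 43.2, 30.2 and 29.4 to 116, 120 and 114 and fell in both clones, from means of 38.7 to 15.1 in 1D5 and 38.5 to 16.4 in 1KI9 (difference of change 3.06 ± 0.15 and 2.94 ± 0.15 SE; limma adjusted p = 4.55e-11 and 5.88e-11). CPOX also rose by 0.94 and fell by 0.67 and 0.47. For ALAS2 the difference was 2.24 against 1D5 and 2.90 against 1KI9. Autophagy genes had medians of 1.93, 0.42 and 0.32, blood group genes 1.94, 0.95 and 0.59, late maturation genes 2.51, 1.00 and 0.59, and globins 2.93, 1.64 and 1.55. Of the 11 globin list members 10 changed more positively than in 1D5 and 9 more than in 1KI9.

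HBE1 and SLC4A1 did not pass for a difference. HBE1 rose in the clones by 6.11 and 5.73, with differences of 0.85 ± 0.54 and 1.24 ± 0.54 (SE; limma adjusted p = 0.19 and 0.055), and SLC4A1 rose by 3.54 and 4.14, with differences of 1.02 ± 0.56 and 0.42 ± 0.56 (SE; limma adjusted p = 0.14 and 0.53). CTSB, a lysosomal protease, rose by 2.32 in full-length GATA1, by 2.82 in 1D5 and by 1.70 in 1KI9, with differences of -0.50 and 0.62 (limma adjusted p = 0.010 and 0.0017). FTL rose by 1.21 in full-length GATA1, by 1.21 in 1D5 and by 0.69 in 1KI9. The fall of mitosis genes had a median of -1.14 in full-length GATA1, -1.69 in 1D5 and -1.43 in 1KI9, and that of ribosome biogenesis -1.47, -1.12 and -0.68.

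The loss of progenitor regulators differed. KIT fell by 1.82 in full-length GATA1, against log2 differences of -0.07 in 1D5 and -0.31 in 1KI9, and the difference of change was -1.76 ± 0.12 and -1.51 ± 0.12 (SE; limma adjusted p = 2.47e-09 and 9.95e-09). MYB fell by 1.27 against -0.14 and 0.15, and GATA2 by 1.02 against -0.06 and 0.20. LIN28B and BCL11A fell in full-length GATA1 and in both clones, LIN28B by 2.37, 2.12 and 1.78, and BCL11A by 2.11, 2.42 and 2.14.

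Several glycolytic genes differed. PFKM rose by 2.38 in full-length GATA1 and had log2 differences of 0.34 and -0.40 in the clones (difference of change 2.04 ± 0.15 and 2.77 ± 0.15 SE; limma adjusted p = 6.94e-09 and 1.44e-10). HK1 rose by 0.83 and fell by 0.46 and 0.20 in the clones, and PFKP fell by 0.72 and rose by 0.55 and 0.32. LDHA fell in full-length GATA1, 1D5 and 1KI9 by 3.52, 2.75 and 2.29.

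The genes with the largest differences against both clones were SELENBP1, HLA-B, TNNI3, OPTN, TMPRSS11F, AQP3, SLC22A4 and MYL4 in the positive direction. SELENBP1 did not pass in 1D5 (adjusted p = 0.75), with means of 10.7 and 11.2 in 1D5 and 2.08 and 2.48 in 1KI9. AQP3, a water and glycerol channel, rose from 21.6, 14.8 and 13.1 to 102, 96.0 and 92.5 and fell in the clones by 1.06 and 1.01. In the negative direction, CSF1, a macrophage growth factor, was at most 0.0571 in full-length expansion and between 1.66 and 1.86 at day 4, and went from means of 8.38 to 335 in 1D5 and 11.9 to 212 in 1KI9. COL27A1, CACNB1, THBS1, C4A and HDC likewise rose in the clones to means of between 6.10 and 56.1 and were at most 5.45 in any full-length library. RHEX fell further in full-length GATA1, and EVI2B fell there by 1.54 and rose in 1D5 by 1.66. By a minimum log2 size of 0.5 in full-length GATA1 and in each clone, 37 genes rose in full-length GATA1 and fell in both clones, and 21 did the reverse.

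**Figure D5:**
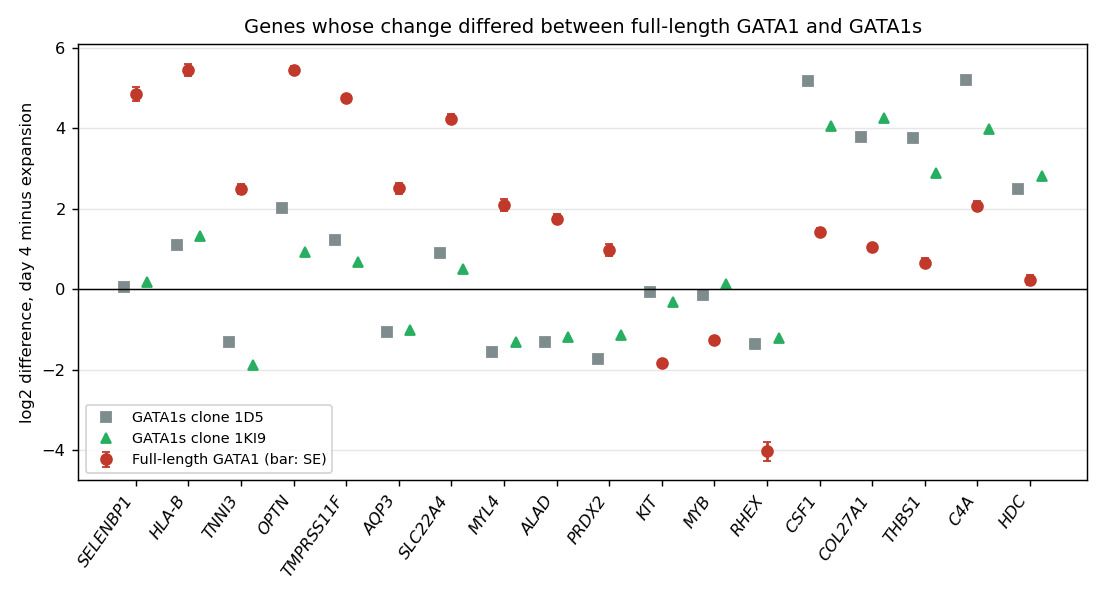
Log2 difference between day 4 and expansion for genes chosen because their change differed between full-length GATA1 (circles, bars are the SE of the fit) and the GATA1s clones 1D5 (squares) and 1KI9 (triangles), each over 3 libraries per condition. SELENBP1 lies at 4.86 against 0.07 and 0.18, and KIT at -1.82 against -0.07 and -0.31.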

How the data were processed

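Poly(A) RNA was sequenced from 18 libraries, and the 6 of full-length GATA1 carry the comparison. Reads were handled with RSEM 1.31, STAR 2.7 and Trim Galore 0.60 on hg38, per the submitters' processing notes. The authors deposited TPM for the expansion libraries, and the day-4 values, whose sums differ between libraries, are treated as a length-corrected signal whose scale no source used here gives. Read depth is unknown, so no counting error is given. The members and gene lists were chosen with earlier results of these data known.

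Values were divided by median-of-ratios size factors over 11554 genes above 0 in all 18 libraries, and log2(value + 1) was fitted with limma 3.58.1 (R 4.3.3) as 6 group means with Benjamini-Hochberg adjustment. Genes needed a value of at least 1 in 3 libraries and a value above 0 in each condition of the series, which left 11015 of 13358. The day-4 unit differed from that assumed in the design, and the log-scale test was kept. Left untested were 312 genes at 0 throughout day 4 and 724 at 0 throughout expansion. Whether those zeros were measured is not stated. In simulated data of 11015 genes for this comparison, 98 of 100 genes changed by a log2 of 1 were recovered and 100 of 100 changed by 2, and 18 unchanged genes were called. The simulation changed only 200 genes, as many up as down, and held no scaling step. In the real data 82.1% of genes were called, so these rates do not describe errors that come from scaling.

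Genes were named by rule: the 12 largest rises and falls without overlap, the 8 highest levels per condition, up to 4 called members per list and direction with other members of short lists by value, and 8 per direction with the largest difference from both clones. Alternatives covered scaling, the pseudocount, the filter, the libraries fitted, a replicate block and leaving out each library.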

Additional observations from a re-analysis of the deposited data

Results flagged for a closer look

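Each gene here was singled out because its change from expansion to day 4 differed between full-length GATA1 and a GATA1s clone by the interaction test in limma (adjusted p under 0.05 against each clone). The values are the log2 change in full-length GATA1 less that in 1D5, then less that in 1KI9.

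More positive in full-length GATA1 were SELENBP1 (4.79 and 4.68), HLA-B (4.34 and 4.14), the troponin gene TNNI3 (3.82 and 4.37), OPTN (3.43 and 4.54), the serine protease gene TMPRSS11F (3.52 and 4.06), AQP3 (3.57 and 3.52), the carnitine-related transporter SLC22A4 (3.34 and 3.73) and the myosin light chain gene MYL4 (3.66 and 3.40). More negative were CSF1 (-3.73 and -2.62), the collagen gene COL27A1 (-2.75 and -3.21), RHEX (-2.67 and -2.82), the calcium channel subunit CACNB1 (-2.65 and -2.82), thrombospondin THBS1 (-3.10 and -2.23), complement C4A (-3.12 and -1.90), EVI2B (-3.20 and -1.81) and HDC, which makes histamine (-2.25 and -2.60).

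Among the 37 genes that rose in full-length GATA1 and fell in both clones, 6 stood on a list. They were ALAD (3.06 and 2.94), the kinase inhibitors CDKN1C (3.60 and 2.89) and CDKN2C (1.86 and 2.01), the red cell peroxidase PRDX2 (2.71 and 2.11), the transcription factor KLF13 (1.58 and 1.79) and ABCB10 (1.95 and 1.48), whose own difference in full-length GATA1 was -0.12 with libraries set to equal totals.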

How the results depend on the processing

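The number of genes called in full-length GATA1 kept within 1.5 times of 9048 under the alternatives run, and leaving out each library in turn gave between 8794 and 8988. The split depended on the scaling. With the values as deposited, 2916 genes were higher, and 1095 rose and 2787 fell at least 2-fold. With libraries set to equal totals, 2449 were higher and 6819 lower, and 930 rose and 3360 fell at least 2-fold. Against 1D5, the changes called more positive and more negative in full-length GATA1 were 1633 and 4928 as deposited and 987 and 6803 at equal totals. They were 1917 and 4348 when scaled to the total without globin and mitochondrially encoded genes, an alternative chosen after seeing the data. Against 1KI9 they were 1444 and 6572 at equal totals. The order of genes within a library does not depend on these factors. With that order kept and all libraries given the same distribution of values (quantile normalization), the same fit called 4197 genes higher and 4870 lower. The size of those differences depends on the distribution imposed. Reversals among named genes were ABCB10 (-0.12), ALAS1 (-0.30) and SPTB (-0.20) at equal totals, ALAS1 (-0.14) and SPTB (-0.036) as deposited, and MT-CO1 (-0.17) after quantile normalization. The cause was not tested. Same-numbered libraries correlated in their deviations at 0.0213, 0.0845 and 0.196. Expansion replicates 2 and 3 correlated best with their own number and replicate 1 with day-4 replicate 2. Such weak correlations cannot settle whether the numbers mark a pairing, and the main fit used none. A replicate block gave 4642 higher and 4465 lower, with 5931 and 6858 differences from 1D5 and 1KI9. Read depth is unknown, which limits what can be said of levels near 0.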
